A study of Homo sapiens with 9 samples.

Results

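MicroRNA host transcripts are long RNAs whose genes carry the hairpins from which microRNAs are cut. A set of 6 such transcripts was examined in ES-2 cells, a line derived from an ovarian cancer. They are MIR503HG, MIR17HG, MIR22HG, MIR31HG, MIR100HG and MIR210HG, 6 of 53 transcripts named as MIR host genes among the 58174 genes of the deposited tables. The set was chosen by the behaviour of MIR503HG upon IGF2BP1 depletion, with the other hosts taken for comparison, so values from siIGF2BP1 against siC are given for these members as a description with no test. The members were matched by the gene symbol of their row, which was identical in both tables.

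Total RNA depleted of ribosomal RNA was sequenced 72 h after transfection in 9 libraries. Control cells received a control siRNA (siC, n = 3), and the other groups received siRNAs directed against the mRNA-binding protein IGF2BP1 (siIGF2BP1, n = 3) or the transcription factor SRF (siSRF, n = 3). No genotype other than that of the parental ES-2 line was given, all groups were transfected, and no source states whether the 3 libraries of a group came from separate cultures, so p-values measure only the spread between these libraries. Between 6421764 and 9416175 reads per library fell on genes.

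Silencing was seen in the libraries that carry its label. IGF2BP1 was at 12.8 ± 0.689 FPKM (fragments per kilobase of transcript, scaled to sequencing depth, mean ± SD, n = 3) in siC and at 4.11 ± 0.0846 FPKM, or 32.2% of siC, in siIGF2BP1. SRF was at 14.5 ± 1.28 FPKM in siC, at 6.01 ± 0.714 FPKM (41.3%) in siIGF2BP1 and at 1.47 ± 0.145 FPKM (10.1%) in siSRF. Of the carcinoma markers examined, KRT18 and VIM were abundant in siC, at 43.4 and 1055 FPKM, whereas PAX8 did not exceed 0.262 FPKM. Of 5 markers of other cells, PTPRC and ALB were at 0, CD14 and PECAM1 stayed below 1 FPKM, and CDH5 was between 7.53 and 16.1 FPKM. CDH5 rose in siIGF2BP1 (log2 difference 0.70, limma adjusted p = 0.00873), as did the keratin KRT8 (0.55, 0.00455), and in siSRF KRT18 rose by 0.91 and VIM fell by 0.31 (0.000329 and 0.0091). CDH5, KRT8 and VIM passed in 0 of 6 fits with 1 library left out. The part of these markers in the values of the host transcripts was not tested.

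A primary host transcript is cleaved in the nucleus at the hairpin, and the resulting precursor is processed to mature strands of which one is commonly favoured. A mature microRNA pairs through its seed, bases 2 to 8 from its 5′ end, with sites that lie mostly in the 3′UTRs of mRNAs, and represses them. In the study's setting, SRF mRNA is a substrate of such repression, from which IGF2BP1 shields it. The deposited values measure host RNA in libraries of long RNA, not mature microRNAs.

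The mature sequences hosted by the 6 genes are shown first, because their seeds are used in the searches of 3′UTRs further below. Hosts with different seeds can still have sites in the same mRNA. All 18 listed hairpins had a mature sequence in RefSeq (GRCh38.p14), 34 sequences under 33 names. The strand usually treated as the guide is printed for each host, 5′ to 3′, with the seed in capitals. MIR503HG is named for miR-503, and miR-424 lies beside it.
miR-424-5p: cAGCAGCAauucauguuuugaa
miR-503-5p: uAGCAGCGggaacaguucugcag
miR-17-5p: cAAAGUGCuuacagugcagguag
miR-20a-5p: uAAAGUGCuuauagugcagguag
miR-18a-5p: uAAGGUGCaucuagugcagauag
miR-19a-3p: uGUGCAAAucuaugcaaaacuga
miR-19b-3p: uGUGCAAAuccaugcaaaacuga
miR-92a-3p: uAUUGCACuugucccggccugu
miR-22-3p: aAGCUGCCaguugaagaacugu
miR-31-5p: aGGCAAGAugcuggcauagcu
miR-100-5p: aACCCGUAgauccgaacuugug
let-7a-5p: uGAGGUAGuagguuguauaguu
miR-125b-5p: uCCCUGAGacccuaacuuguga
miR-210-3p: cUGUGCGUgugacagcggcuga

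Within MIR17HG, miR-17-5p and miR-20a-5p carried the same seed, as did miR-19a-3p and miR-19b-3p. The seeds of miR-424-5p and miR-503-5p both opened with AGCAGC but were not identical. No seed of the printed strands was shared between different hosts.

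The hosts differ in how their hairpins are placed. In GENCODE v44 (GRCh38, a later release than the Ensembl annotation the authors counted on), MIR503HG lies on the minus strand at chrX:134543119-134546642 and spans 3524 bases. The MIR503 hairpin starts 0.244 kb inside the gene, in an intron of the canonical transcript, and MIR424 lies across the annotated 5′ end of the gene. MIR542 and the MIR450 hairpins start 5.21 to 6.38 kb from that end, beyond the annotated host. MIR17HG (chr13:91347686-91397592, plus strand) holds 6 hairpins between 2.92 and 3.63 kb, which are intronic in the canonical transcript and wholly exonic in 3 of 16 annotated transcripts. MIR22 lies in an exon of the canonical MIR22HG transcript (chr17:1711447-1717174, minus strand) and of 30 of 32 transcripts. MIR31 lies in an intron of MIR31HG (chr9:21380073-21559891, minus strand), 47.7 kb from the start. MIR100HG (chr11:122028325-122556721, minus strand) is the longest host at 528397 bases, and MIR100, MIRLET7A2 and MIR125B1 lie 404 to 457 kb from its start, in no exon of its 107 transcripts. MIR210 is intronic, 0.259 kb into MIR210HG (chr11:565657-568457, minus strand).

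**Figure D1:**
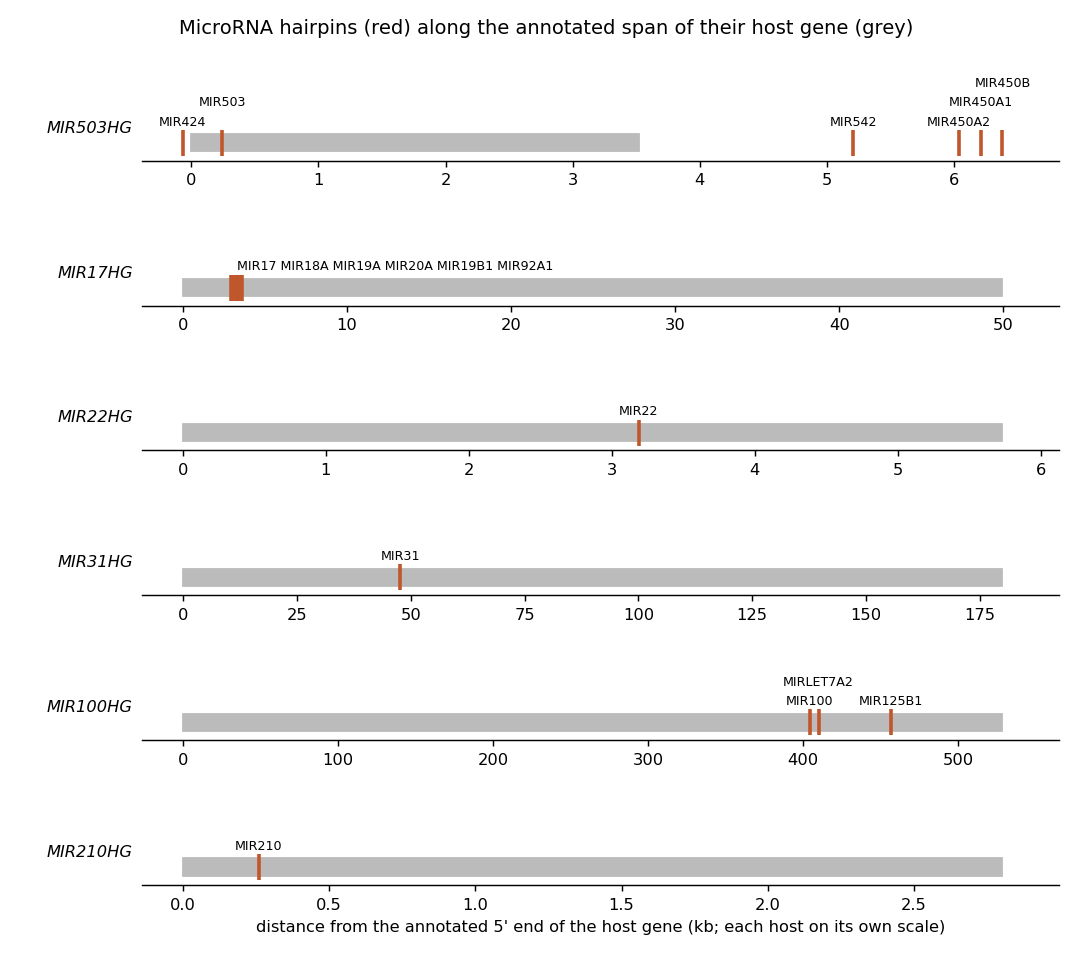
Hairpin starts (red ticks) as distance in kb from the annotated 5′ end of each host gene (grey bar, the annotated span in GENCODE v44), each host on its own scale. MIR424 sits at the very start of MIR503HG, MIR542 and the MIR450 hairpins lie past its end, and the MIR100HG hairpins lie 404 to 457 kb from the start of a gene of 528397 bases.

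The promoter of MIR503HG is shown because it overlaps a microRNA hairpin. The RefSeq window of 250 bases before and 50 bases after the start (GRCh38.p14, chrX:134546581-134546880, minus strand) holds both mature miR-424 strands, which stand in capitals, miR-424-5p before miR-424-3p.
MIR503HG promoter: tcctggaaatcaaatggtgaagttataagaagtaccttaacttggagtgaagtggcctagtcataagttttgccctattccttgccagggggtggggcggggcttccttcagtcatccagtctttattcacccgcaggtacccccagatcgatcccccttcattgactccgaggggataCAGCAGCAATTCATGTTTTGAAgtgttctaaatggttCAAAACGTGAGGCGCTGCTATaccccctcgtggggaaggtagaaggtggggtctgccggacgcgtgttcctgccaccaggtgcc

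The 11 RefSeq promoter windows of the 6 hosts, 6 of them alternative starts of MIR100HG, were searched on both strands for 4 motifs, a description added after the values had been seen. None of these windows held a CArG box, the element SRF binds, which 1.29% of 35116 RefSeq promoters of the same length hold, nor the E-box CACGTG (7.26% of promoters) or the AP-1 site TGANTCA (7.71%). The hypoxia core, ACGTG or GCGTG, which is also part of CACGTG, was found in windows of MIR503HG, MIR22HG, MIR100HG and MIR210HG, and it occurs in 48.4% of all promoters. Absence of these letters refers to the 300-base windows only.

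MIR503HG, a long non-coding RNA of 1678 counted bases, had the largest difference among the well-covered members upon IGF2BP1 depletion. Its level was 5.51, 5.70 and 5.36 FPKM in the siC libraries, 14.1, 17.1 and 15.5 FPKM in siIGF2BP1, and 6.68, 6.21 and 7.92 FPKM in siSRF. Every siIGF2BP1 library was above every siSRF library, and every siSRF library above every siC library. The difference between siIGF2BP1 and siC was 1.47 ± 0.0835 on the log2(FPKM + 0.1) scale (SE), and it rested on 181 to 220 reads per siIGF2BP1 library against 61 to 65 reads per siC library. This is the contrast by which the members were selected, so no test is attached. In siSRF, the difference from siC was 0.32 (95% confidence interval 0.07 to 0.57), which did not pass the test (limma, adjusted p = 0.073, Benjamini-Hochberg over 21857 genes, threshold 0.01). As these are bulk libraries, fewer cells of a kind and less RNA per cell cannot be told apart.

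MIR210HG, the host of the hypoxia-induced miR-210, was barely detected. It had 0, 1 and 0 reads in siC, 5, 8 and 7 reads in siIGF2BP1 and 0, 0 and 2 reads in siSRF. The siIGF2BP1 libraries, at 0.281, 0.473 and 0.356 FPKM, did not overlap those of siC. Summed over libraries, these were 20 reads against 1. The transcript passed the filter only through siIGF2BP1, where it is high, so this is a description and no size is read from it. In siSRF the transcript stayed below the filter of 0.1 FPKM and was not tested.

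MIR22HG, the host of miR-22, a microRNA named in the study as acting on SRF, rose in siSRF. Its level was 3.09, 3.55 and 3.94 FPKM in siC, 3.97, 3.99 and 4.27 FPKM in siIGF2BP1, and 7.42, 7.97 and 7.27 FPKM in siSRF. The siSRF libraries were well above both other groups, and the siIGF2BP1 libraries lay just above those of siC. In siSRF the difference from siC was 1.08 ± 0.105 on the log2 scale (95% interval 0.83 to 1.34, limma adjusted p = 0.00124). Without siSRF library 1, 2 or 3 the adjusted p was 0.0120, 0.0131 or 0.0109, just past the threshold of 0.01, at log2 differences of 1.09, 1.04 and 1.11. In siIGF2BP1 the descriptive difference was 0.21 ± 0.113. The exact permutation test over 3 against 3 libraries gave p = 0.1, the smallest value it can give.

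MIR100HG, the host of miR-100, let-7a-2 and miR-125b-1, also rose in siSRF, and was the most abundant member. It was at 12.6, 11.8 and 11.97 FPKM in siC, at 8.96, 10.0 and 8.89 FPKM in siIGF2BP1 and at 21.99, 21.1 and 21.6 FPKM in siSRF. The 3 groups did not overlap, with siIGF2BP1 lowest and siSRF highest. The rise in siSRF was 0.82 ± 0.0474 on the log2 scale (95% interval 0.71 to 0.94, limma adjusted p = 0.000329). The exact permutation test again gave p = 0.1. The descriptive difference in siIGF2BP1 was -0.38 ± 0.0689.

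MIR31HG, the host of miR-31, varied most between replicates among the members with at least 1 FPKM. It was at 8.34, 6.91 and 4.64 FPKM in siC, at 3.85, 5.70 and 2.85 FPKM in siIGF2BP1, and at 8.65, 10.5 and 13.7 FPKM in siSRF. These values rest on 18 to 75 reads per library, since the counted model has only 745 bases. The siIGF2BP1 and siC libraries overlapped, and the siSRF libraries lay above those of siC. The difference in siSRF, 0.73 on the log2 scale (95% interval 0.11 to 1.34), did not pass the test (limma adjusted p = 0.0917).

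MIR17HG, the host of the MYC-induced miR-17/92 cluster, had siC libraries that overlapped those of both knockdowns, while every siSRF library lay above every siIGF2BP1 library. It was at 10.3, 8.34 and 11.9 FPKM in siC, at 8.52, 10.6 and 9.33 FPKM in siIGF2BP1 and at 11.5, 11.2 and 11.9 FPKM in siSRF. The differences from siC were -0.09 ± 0.147 in siIGF2BP1 and 0.19 in siSRF (95% interval -0.12 to 0.50, limma adjusted p = 0.364, exact permutation p = 0.4). MYC itself was at 55.9 FPKM in siC and rose in siSRF by 0.38 on the log2 scale (limma adjusted p = 0.00158).

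**Figure D2:**
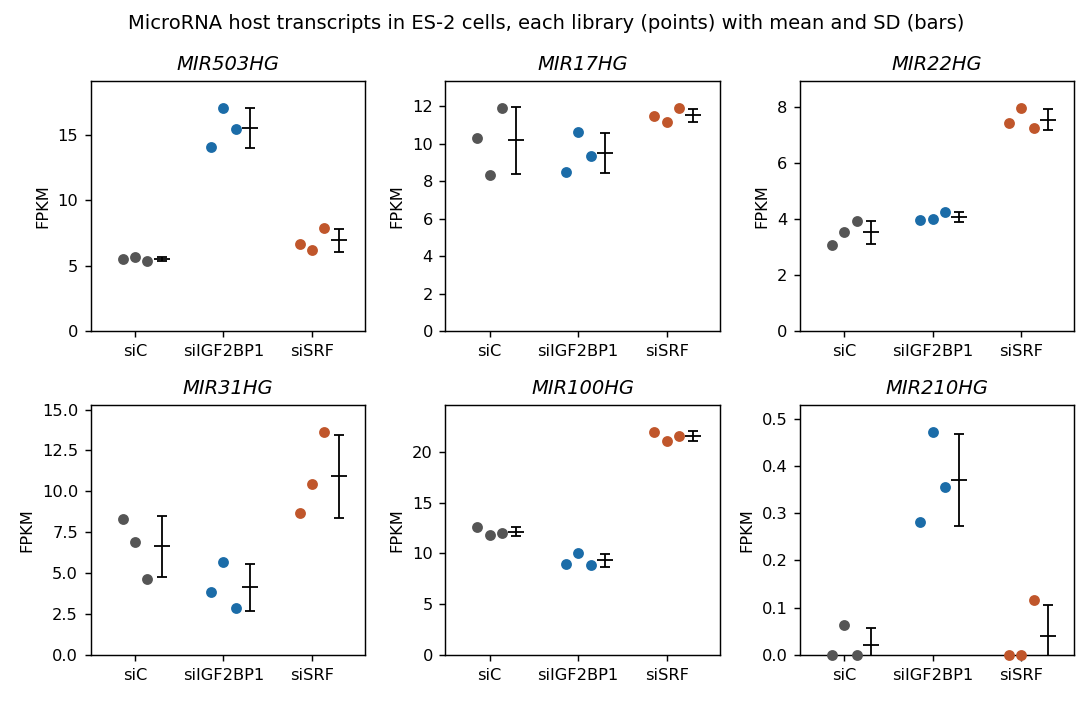
FPKM of each member in every library (points) with the mean and SD of each group (black bars, n = 3), each panel on its own linear scale from 0. MIR503HG is highest in siIGF2BP1, MIR22HG and MIR100HG are highest in siSRF, and the siC libraries of MIR17HG overlap both knockdowns.

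In siC the levels per length ran in the order MIR100HG (12.1 ± 0.424 FPKM), MIR17HG (10.2 ± 1.79), MIR31HG (6.63 ± 1.86), MIR503HG (5.52 ± 0.173), MIR22HG (3.53 ± 0.421) and MIR210HG (mean 0.0211). The ranges of MIR100HG and MIR17HG overlapped, as did those of MIR31HG and MIR503HG, so these neighbours were not separated by their spread.

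Counted over members, 3 of 6 had siIGF2BP1 libraries all above siC (MIR503HG, MIR22HG and MIR210HG), 1 of 6 all below (MIR100HG), and 2 of 6 overlapped. The same non-overlap was found in 18.1% (above) and 17.6% (below) of 22292 genes in that comparison, and 3.55% and 3.57% of those genes were called higher and lower. As the members were chosen from this contrast, nothing is read from these counts. In siSRF, 2 of 5 tested members were called higher and 0 lower, against 6.85% and 5.34% of 21857 genes. At an unadjusted p below 0.05, 4 members were higher and 0 lower, and the share of all genes at that threshold was not counted. Limma-voom, run on reads recovered from the FPKM values, gave 2 higher and 0 lower, against 2780 and 2343 of all 21857 genes. Libraries of 4 of 6 members lay wholly above siC, where 20.9% of genes did so (19.0% below). Both comparisons use the same siC libraries, and siIGF2BP1 was not tested against siSRF.

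The other host transcripts give a background for these values. Of the 47 others, 17 had no read in any library, 20 passed the filter for siIGF2BP1 and 18 for siSRF. Among the 20, MIR4435.2HG was called higher upon IGF2BP1 depletion, at 7.72 ± 0.326 FPKM in siC and 14.8 ± 0.598 in siIGF2BP1 (log2 difference 0.92, limma adjusted p = 0.000514, 0.0048 to 0.00823 with 1 library left out). None was called lower. At an unadjusted p below 0.05, 7 were higher and 2 lower, and the share of all genes at that threshold was not counted. Limma-voom called 3 higher and 1 lower, against 1914 and 1891 of all 22292 genes. MIR3681HG, counted as higher in both, passed the filter only through siIGF2BP1 (0.0253 FPKM in siC, 0.289 in siIGF2BP1), so nothing is read from it. MIR4500HG, at 0.175 and 0.014 FPKM, was filtered out there. Among the 18, MIR155HG, the host of the immune microRNA miR-155, rose in siSRF from 8.91 ± 1.02 to 15.2 ± 0.945 FPKM (log2 difference 0.77, limma adjusted p = 0.00296). That call was lost in 5 of the 6 fits with 1 library left out, in which the adjusted p ran from 0.00703 to 0.0241. No host was called lower in siSRF, with 3 higher and 1 lower unadjusted and 1 and 0 by limma-voom.

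The most abundant of the transcripts named as MIR host genes was not among the members. MIR222HG, the host of miR-221 and miR-222, was at 27.8 ± 1.77 FPKM in siC, 23.9 ± 1.18 in siIGF2BP1 and 28.3 ± 2.41 in siSRF, and passed neither test (limma adjusted p = 0.077 and 0.868). MIRLET7BHG (3.94 FPKM in siC, limma adjusted p = 0.498 and 0.376) and MIR181A1HG were next after MIR4435.2HG. MIR181A1HG, from which one copy of miR-181a arises, was at 2.63 ± 0.684 FPKM in siC and 4.36 ± 0.454 in siIGF2BP1, which missed the threshold (log2 difference 0.73, limma adjusted p = 0.0513). The median log2 difference of the other hosts was 0.23 in siIGF2BP1 and 0.15 in siSRF, against 0.017 and 0.0074 for all genes tested.

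**Figure D3:**
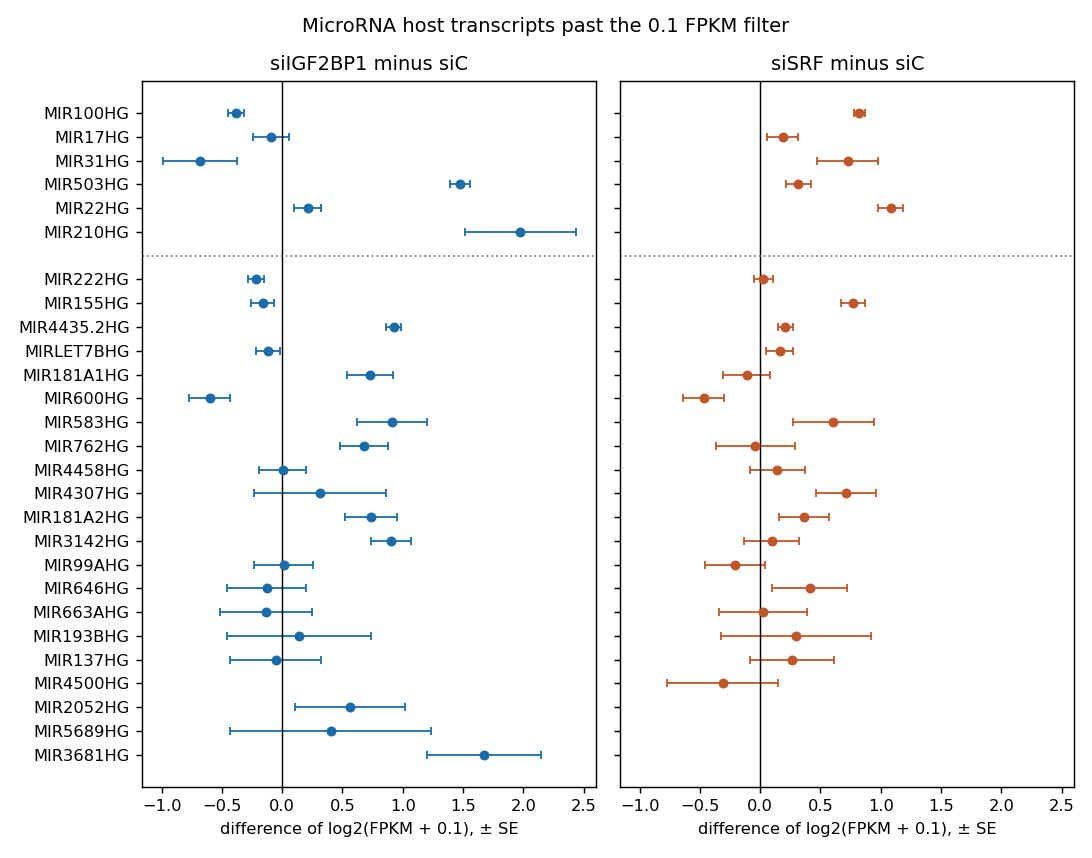
Difference of log2(FPKM + 0.1) from siC (points, bars ± SE, n = 3 per group) for the 6 members above the dotted line and the other host transcripts past the 0.1 FPKM filter below it, ordered by siC level. MIR503HG stands at 1.47 in siIGF2BP1, and MIR22HG and MIR100HG at 1.08 and 0.82 in siSRF. The 1.98 of MIR210HG in siIGF2BP1 rests on 20 reads against 1 and depends on the pseudocount, with 0.42 at a pseudocount of 1. MIR210HG has no point in siSRF.

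Rows for the hairpins themselves held few reads. Of 18 hairpin rows, 11 had no read in any library. MIR424 had 1, 2 and 1 reads in siC, 5, 6 and 2 in siIGF2BP1 and 1, 1 and 2 in siSRF. MIR503 had 2, 2 and 1 reads in siC, 3, 3 and 7 in siIGF2BP1 and 0, 1 and 6 in siSRF. The larger counts came from MIR100HG, with MIR100 at 31, 20 and 23 reads in siC, 16, 20 and 14 in siIGF2BP1 and 27, 33 and 16 in siSRF. MIRLET7A2 and MIR125B1 had 180 and 124 reads over all libraries. In siSRF the log2 differences of MIR100, MIRLET7A2 and MIR125B1 from siC were -0.19, 0.46 and 0.06, where the host rose by 0.82. Of the 7 rows with reads, limma called 0 in either knockdown, and limma-voom called 0. At an unadjusted p below 0.05, 2 rows were higher and 1 lower in siIGF2BP1 and 0 in siSRF. The share of all genes at that threshold was not counted. Such reads may come from the host RNA across the hairpin and do not measure the mature microRNA, and how reads on overlapping genes were assigned is not given in the sources used here.

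The protein-coding genes nearest to each host, among those past the filter in both comparisons, were examined to see whether the host's pattern was shared across the locus. PLAC1, a gene best known from the placenta, lies 19.2 kb from MIR503HG on the same strand and rose upon IGF2BP1 depletion from 0.124 ± 0.08 to 1.18 ± 0.0999 FPKM (log2 difference 2.57 ± 0.354, limma adjusted p = 0.0056), on 1, 1 and 3 reads against 16, 18 and 19. The adjusted p of PLAC1 with 1 library left out ran from 0.00891 to 0.0312 and passed in 1 of 6 fits. In siSRF it was at 0.192 ± 0.11 FPKM (limma adjusted p = 0.684). HPRT1, a purine salvage enzyme 22.6 kb to the other side, differed by 0.27 in siIGF2BP1 and 0.02 in siSRF (limma adjusted p = 0.0402 and 0.916).

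UBASH3B, a phosphatase gene 99 kb from MIR100HG on the opposite strand, had the same order of groups as its neighbour. It was at 9.55 ± 1.49 FPKM in siC, fell to 3.89 ± 0.244 in siIGF2BP1 (log2 difference -1.27, limma adjusted p = 0.00169) and rose to 19.1 ± 0.394 in siSRF (1.00, limma adjusted p = 0.0017). With 1 library left out, the adjusted p of UBASH3B ran from 0.0062 to 0.02 and from 0.00229 to 0.0172. BLID lies within MIR100HG on the same strand, so its reads cannot be told apart with certainty from those of the host. It fell in siIGF2BP1 by 0.93 on the log2 scale (limma adjusted p = 0.0017, 0.00824 to 0.0157 with 1 library left out) and differed by 0.23 in siSRF (limma adjusted p = 0.0924). SC5D on the far side, 714.9 kb away, passed neither test.

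At MIR31HG, MTAP, a methionine salvage enzyme 242.7 kb away, fell upon IGF2BP1 depletion from 7.67 ± 0.369 to 4.40 ± 0.0531 FPKM (log2 difference -0.79, limma adjusted p = 0.00126, and 0.0112 at most with 1 library left out). In siSRF it was at 9.69 ± 0.379 FPKM (0.33, limma adjusted p = 0.0126). KLHL9 and the overlapping IFNE passed neither test.

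At MIR22HG, the neighbours did not share the pattern of the host. SERPINF1, the gene for a secreted anti-angiogenic factor 44.9 kb away, rose in siIGF2BP1 from 1.18 ± 0.0711 to 4.09 ± 0.436 FPKM (log2 difference 1.70, limma adjusted p = 0.000892, and 0.0121 at most with 1 library left out) and fell in siSRF to 0.332 ± 0.0294 FPKM (-1.57, limma adjusted p = 0.00458, 0.0169 to 0.0198 with 1 library left out). WDR81 overlaps MIR22HG on the opposite strand and differed from siC by -0.63 in siSRF (limma adjusted p = 0.0108), whereas MIR22HG rose. TLCD2, 1.1 kb away, passed neither test. The library kit keeps strand, but the strand setting used in counting is not given in the sources used here.

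RASSF7, 1.6 kb from MIR210HG, fell in siSRF from 2.15 ± 0.204 to 0.926 ± 0.169 FPKM (log2 difference -1.15, limma adjusted p = 0.00777, 0.0235 to 0.0337 with 1 library left out). PHRF1, 8 kb away, passed neither test. For MIR17HG, the nearest tested protein-coding genes were GPC6, 1829 kb away, and SLITRK5, 3651 kb away, and neither passed a test. Genes under the filter were left out of this search, so these distances do not describe how close the nearest annotated gene lies.

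**Figure D4:**
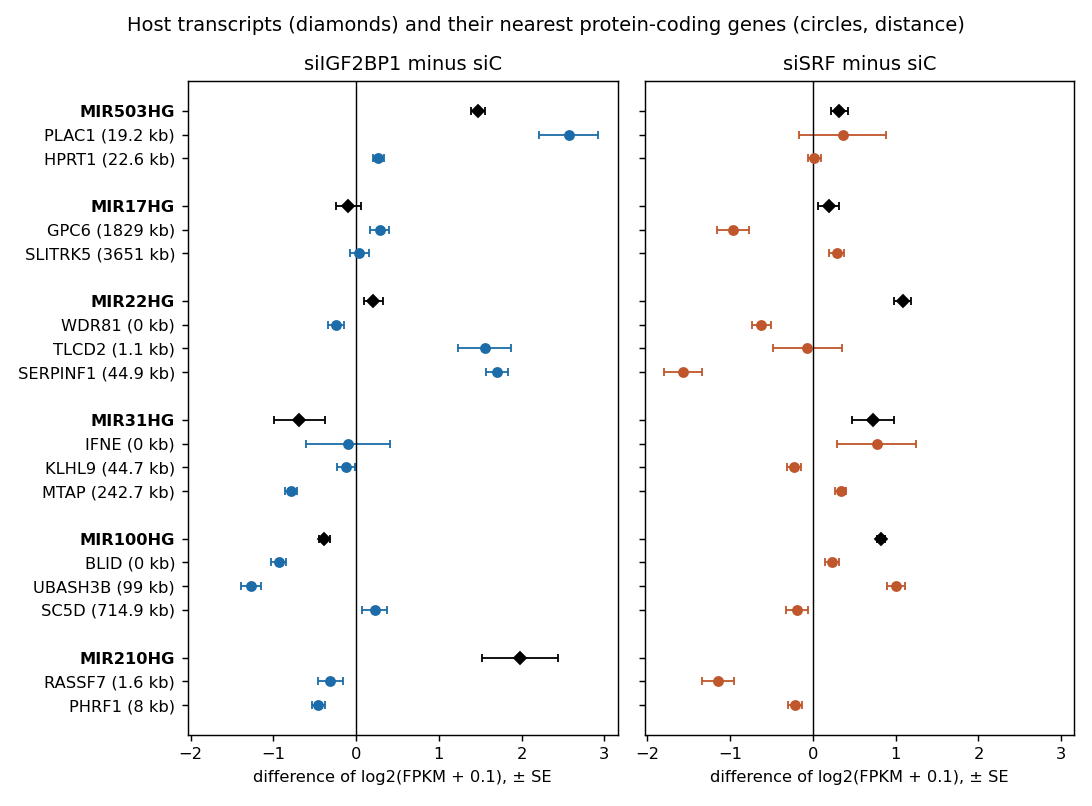
Difference of log2(FPKM + 0.1) from siC (± SE, n = 3 per group) for each host (black diamonds) and its nearest tested protein-coding genes (circles, with the distance in kb, 0 for overlapping genes). PLAC1 lies on the same side of 0 as MIR503HG in siIGF2BP1, UBASH3B on the same side as MIR100HG in both knockdowns, and SERPINF1 on the opposite side from MIR22HG in siSRF.

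The genes whose pattern over the 9 libraries was most like that of each host were found by Pearson's r of log2(FPKM + 0.1) among 14168 genes of at least 1 FPKM. The libraries are shared, so r is a description. For MIR503HG they were AC092066.1 (r = 0.995), FBXL5 (0.987) and PDCD4 (0.985), with PDCD4, a translation inhibitor, at 8.60, 14.2 and 9.83 FPKM in siC, siIGF2BP1 and siSRF. For MIR100HG they were EREG (0.999), SGK1 (0.997) and PTPN22 (0.997). EREG, an EGF-family ligand, was at 5.63, 3.16 and 20.4 FPKM in the same order. For MIR22HG they were NEXN (0.993), an actin-binding protein at 2.46, 3.10 and 7.02 FPKM, the transcription factor FOXO3 (0.992) and the transglutaminase TGM2 (0.992). For MIR17HG the closest was the centromere protein CENPU (0.951), followed by RNU6.1222P (0.940) and FAM200A (0.924). For MIR31HG the closest was ZNF394 (0.962), followed by PLEKHF2 (0.957) and RP11.359K18.4 (0.952). For MIR210HG, at its few reads, CARD10 (0.972), APAF1 (0.967) and TTC3 (0.960) came closest.

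Protein-coding and other genes that carry a microRNA in an intron moved in both directions. Of 34 tested in siIGF2BP1, 4 were called higher and 3 lower, and of 33 in siSRF, 4 higher and 4 lower, where 3.55% and 3.57% of all genes were called in siIGF2BP1 and 6.85% and 5.34% in siSRF, with median log2 differences of 0.059 and -0.106. SLIT3 and SLIT2, whose introns carry the miR-218 hairpins, were among the higher ones upon IGF2BP1 depletion, SLIT3 from 1.98 ± 0.0295 to 14.7 ± 1.23 FPKM (log2 difference 2.83, limma adjusted p = 0.000101) and SLIT2 by 1.44 (limma adjusted p = 0.00291). SLIT2 rose in siSRF as well, by 1.89 (limma adjusted p = 0.00086). MEST, the imprinted host of miR-335, had 0, 3 and 5 reads in siC, 98, 98 and 105 in siIGF2BP1 and 0, 1 and 1 in siSRF. It is counted among the 4, but it passed the filter only through siIGF2BP1, where it is high, so its p is not given. SREBF2 and SREBF1, lipid regulators that host miR-33a and miR-33b, went apart in siIGF2BP1, with SREBF2 higher by 0.58 and SREBF1 lower by 0.82 (limma adjusted p = 0.00136 and 0.00114), and both fell in siSRF, by 0.65 and 1.01 (limma adjusted p = 0.00123 and 0.000553). CTDSP2, the host of a miR-26a copy, fell in both, by 0.58 and 0.80 (limma adjusted p = 0.00642 and 0.000294). MCM7, which hosts the miR-106b/25 cluster, fell by 0.38 in siIGF2BP1 (limma adjusted p = 0.0093). In siSRF, SKA2 (0.45, limma adjusted p = 0.0052), ZRANB2 (0.46, 0.00389) and CHM (0.63, 0.00247) rose and GPC1 fell by 2.29 (limma adjusted p = 0.00223). With 1 library left out, MCM7 and CTDSP2 in siIGF2BP1 (adjusted p up to 0.0433 and 0.0368) and SKA2 and GPC1 in siSRF (up to 0.033 and 0.0154) passed in 0 of 6 fits. SLIT2 was lost in 5 of 6 in siIGF2BP1 (up to 0.0239), and SREBF1 and SREBF2 each in 3 of 6. In siSRF, ZRANB2 and CHM were each lost in 4 of 6 (up to 0.0255 and 0.02), and SLIT2 and SREBF2 each in 1 of 6.

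Reported targets of the hosted microRNAs, listed from general knowledge, were read next. Of 75 tested, 8 were called higher and 5 lower in siIGF2BP1, and 10 higher and 9 lower in siSRF, against 3.55% and 3.57%, and 6.85% and 5.34%, of all genes. All genes include many low non-coding ones, whereas the targets are mRNAs. Of 12168 tested genes with a 3′UTR, 5.6% were called higher and 6.04% lower in siIGF2BP1, and 11.3% and 8.79% in siSRF. The medians were -0.025 and 0.037, close to those of all genes. SRF and IGF2BP1 are on the list and were themselves silenced.

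Of 18 listed targets of miR-424 and miR-503, cell cycle regulators for the most part, 0 were called higher and 1 lower in siIGF2BP1, where the host was highest. The called gene was CCNE1, cyclin E1, which fell from 7.30 ± 1.47 to 3.31 ± 0.177 FPKM (log2 difference -1.10, limma adjusted p = 0.00522, 0.0105 to 0.0381 with 1 library left out). At an unadjusted p below 0.05 in limma, 2 of the 18 were higher and 5 lower. The share of all genes at that threshold was not counted, so nothing is read from these counts. Limma-voom called 2 higher and 3 lower, against 1914 and 1891 of all 22292 genes. CCND1, cyclin D1, was at 209, 214 and 206 FPKM in siC, siIGF2BP1 and siSRF. CDC25A differed by -0.62 in siIGF2BP1 (limma adjusted p = 0.0238). In siSRF, CDK6 (0.63, limma adjusted p = 0.000392), FGF2 (0.61, 0.0055) and SMURF2 (0.74, 0.000532) rose, and CCNF (-0.45, 0.00435) and VEGFA (-0.78, 0.00149) fell. CCNF passed in 0 of 6 fits with 1 library left out (adjusted p 0.014 to 0.0222), and FGF2 in 1 of 6 (up to 0.0319).

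Among the tested targets of the miR-17/92 cluster, TGFBR2, THBS1 and RBL2 rose and CDKN1A fell in siIGF2BP1. THBS1, a matrix glycoprotein, went from 44.3 ± 1.84 to 107.9 ± 3.20 FPKM (log2 difference 1.28, limma adjusted p = 0.000101). In siSRF, CTGF (1.13, limma adjusted p = 0.00429) rose, and E2F1 (-0.43, 0.00989) and E2F2 (-1.26, 0.00744) fell. With 1 library left out, TGFBR2, RBL2 and CDKN1A in siIGF2BP1 (adjusted p up to 0.0272, 0.035 and 0.0461) and E2F2 in siSRF (up to 0.041) passed in 0 of 6 fits, and E2F1 and CTGF in siSRF in 1 of 6 (up to 0.0494 and 0.0318).

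Among the tested targets of miR-22, TIAM1 (0.82, limma adjusted p = 0.0013) rose and SRF and CDKN1A fell in siIGF2BP1. In siSRF, where MIR22HG was higher, CDK6 rose and SP1 (-0.44, limma adjusted p = 0.00351) and the silenced SRF fell. Of 12 targets of miR-31, ITGA5, an integrin subunit, rose in siIGF2BP1 (0.46, limma adjusted p = 0.00997) and fell in siSRF (-0.38, 0.00994), where RASA1 (0.34, 0.00298) and DKK1 (0.51, 0.000922) rose. Of 17 targets of miR-100, let-7 and miR-125b, HMGA2, a chromatin protein and let-7 target, rose in both knockdowns, by 0.52 and 0.61 (limma adjusted p = 0.00867 and 0.00141), and the mitotic kinase PLK1 fell in both, by 0.63 and 0.36 (0.00108 and 0.00515). STAT3 rose in siIGF2BP1 by 0.63 (limma adjusted p = 0.00172). Of 10 tested targets of miR-210, limma called 0 in siIGF2BP1, with 1 higher and 4 lower at an unadjusted p below 0.05. The share of all genes at that threshold was not counted, and limma-voom called 1 higher and 0 lower. In siSRF, PTPN1 rose (0.54, limma adjusted p = 0.00108) and FGFRL1 fell (-1.18, 0.00301). With 1 library left out, ITGA5 passed in 0 of 6 fits in either knockdown (adjusted p 0.0176 to 0.052 and 0.0173 to 0.0424), as did HMGA2 in siIGF2BP1 (up to 0.0439) and FGFRL1 in siSRF (up to 0.0197). SP1 and PLK1 in siSRF were each lost in 5 of 6 (up to 0.0212 and 0.024). STAT3 in siIGF2BP1 and RASA1 in siSRF were each lost in 4 of 6 (up to 0.013 and 0.02). TIAM1 in siIGF2BP1 and HMGA2 in siSRF were each lost in 3 of 6.

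**Figure D5:**
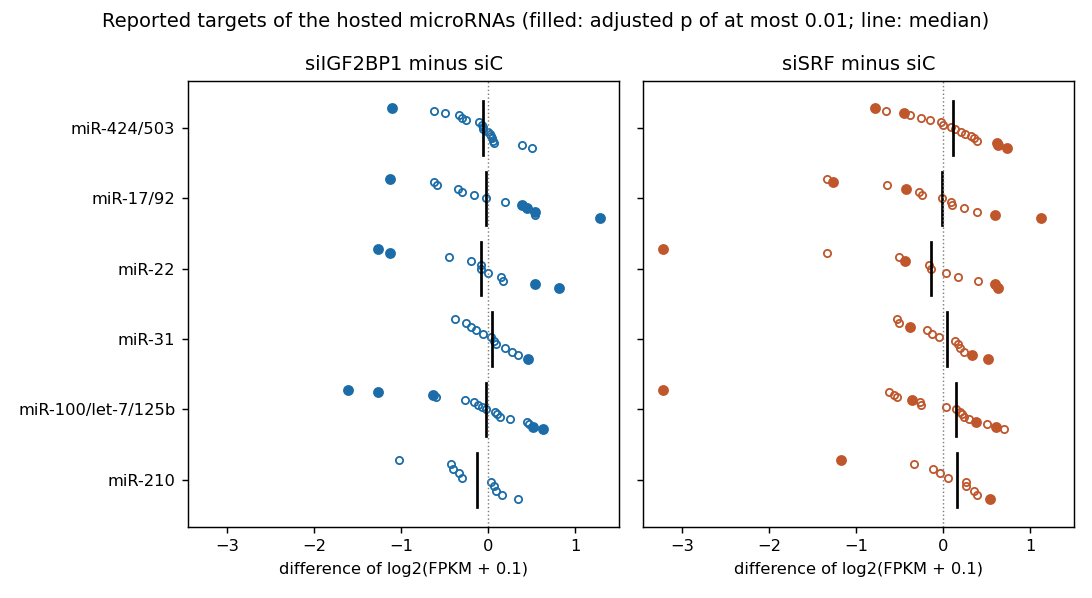
Difference of log2(FPKM + 0.1) from siC for the tested reported targets of each group of microRNAs (circles, filled where the limma adjusted p was at most 0.01), with the median of each list (black line). Filled points lie on both sides of 0 in most lists, and the medians lie between -0.14 and 0.16. The far left points in siSRF are the silenced SRF.

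Seed matches in the 3′UTRs of SRF and IGF2BP1 were located because these mRNAs were the ones silenced, in a search added after the values had been seen. In the 2316-base 3′UTR of the canonical SRF transcript, the 7 bases pairing with the seed were found, among the strands printed above, 2 times for miR-31-5p and 1 time for miR-125b-5p. The opposite strands of the hairpins added 3 matches for miR-210-5p and 1 each for miR-424-3p, miR-18a-3p and miR-450a-2-3p. Of 3083 human 3′UTRs within 25% of that length, 17.7% and 21.3% hold a match to miR-31-5p and miR-125b-5p. Their sites (GRCh38, plus strand of chromosome 6) are shown with the pairing bases in capitals.
SRF site for miR-31-5p, chr6:43179570-43179592: cagttggggcccTCTTGCCagcc
SRF site for miR-31-5p, chr6:43180893-43180915: ccctcattgctgTCTTGCCccag
SRF site for miR-125b-5p, chr6:43179648-43179670: ctggctctgcccCTCAGGGggcc

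The 7 letters pairing with the seeds of miR-424-5p, miR-503-5p, miR-22-3p, miR-17-5p and let-7a-5p were not in this SRF 3′UTR. This does not bear on shorter matches or on pairing outside the seed. The matches in the 6701-base 3′UTR of IGF2BP1 included 4 to let-7a-5p, a seed matched in 30.9% of 968 3′UTRs of similar length, and 3 to the seed shared by miR-17-5p and miR-20a-5p (63.5%), with further ones to other strands. Those to let-7a-5p are shown on the plus strand of chromosome 17.
IGF2BP1 site for let-7a-5p, chr17:49051064-49051086: gtgcgaagtaaaCTACCTCaagg
IGF2BP1 site for let-7a-5p, chr17:49053701-49053723: cagtgctagtaaCTACCTCacag
IGF2BP1 site for let-7a-5p, chr17:49054355-49054377: taaatggattaaCTACCTCaatc
IGF2BP1 site for let-7a-5p, chr17:49055000-49055022: cttttgttttatCTACCTCttag

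Genes whose 3′UTR holds a seed match are described without a test. In siIGF2BP1, the 2974 genes matching miR-424-5p had a median log2 difference of 0.0021, with 6.09% called higher and 6.12% lower, against -0.011, 5.61% and 6.04% for all 12168 genes with a 3′UTR. The 590 genes matching miR-503-5p had a median of -0.031, with 4.41% called higher and 6.10% lower. In siSRF, the medians of those lists were 0.0081 and -0.068, against 0.019 for all, of which 11.3% were called higher and 8.79% lower. There, the 3048 genes matching miR-17-5p had a median of 0.075, with 14.6% called higher and 6.66% lower, and the 2371 matching miR-450b-5p one of 0.098, with 14.9% and 5.36%. The 1890 genes matching miR-22-3p had a median of -0.04 and the 1935 matching miR-125b-5p one of -0.059, with 8.32% called higher and 11.3% lower in the latter, whereas the 1330 matching let-7a-5p had one of 0.044. The matching lists have longer 3′UTRs, with medians of 2532 to 3175 bases in these 7 lists against 1322 for all, so the comparison is between genes that also differ in 3′UTR length.

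Regulators named with these hosts in general knowledge were examined last. Of 10 tested hypoxia genes, 4 were called higher in siIGF2BP1, against 3.55% of all genes and 5.6% of those with a 3′UTR. They were HIF1A (0.56, limma adjusted p = 0.000713), P4HA1 (1.04, 0.000692), PDK1 (0.69, 0.00391) and BNIP3 (0.26, 0.00883), and 0 were called lower. The other tested genes were not called there, with VEGFA at 0.06, NDRG1 at 0.09, ANKRD37 at 0.03, SLC2A1 at 0.04, KDM3A at 0.29 and LDHA at -0.20. At an unadjusted p below 0.05, 5 were higher and 1 lower, and the share of all genes at that threshold was not counted. Limma-voom called 4 higher and 1 lower. CA9, ADM and EGLN3 stayed under the filter in both knockdowns. In siSRF, HIF1A (0.67, limma adjusted p = 0.000508) and BNIP3 (0.68, 0.000495) rose and VEGFA, NDRG1 (-0.77, 0.00184) and SLC2A1 (-0.48, 0.00137) fell. In siIGF2BP1, BNIP3 passed in 0 of 6 fits with 1 library left out (adjusted p up to 0.03) and PDK1 in 1 of 6 (up to 0.0264). NDRG1 in siSRF was lost in 5 of 6 such fits (up to 0.0121). Of 5 tested MYC and E2F genes, limma called 0 in siIGF2BP1, with 0 higher and 3 lower at an unadjusted p below 0.05. The share of all genes at that threshold was not counted, and limma-voom called 0 higher and 2 lower. In siSRF, MYC rose and E2F1 and E2F2 fell.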

How the data were processed

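The authors trimmed reads with cutadapt 1.14, aligned them to GRCh38 with HISAT2 2.1.0, counted them per gene with featureCounts 1.5.3 on Ensembl annotation and deposited TMM-scaled FPKM values (edgeR 3.18.1) in 2 tables that share the siC columns. Each table also gives a gene length, in bases, and the authors' own fold changes and p-values, which were not used. Every FPKM value corresponded to a whole number of reads (tolerance 0.01), so reads were recovered for depth, read counts and an alternative test.

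Groups followed the labels. The main test was limma 3.58.1 (R 4.3.3) with a trended prior on log2(FPKM + 0.1), restricted to genes that averaged 0.1 FPKM or more in the 6 libraries compared, at a Benjamini-Hochberg adjusted p of at most 0.01. Fold changes on this scale understate those of low genes. When the test was checked on simulated data, its wrong calls lay among genes with few reads, so calls on such genes are less firm, and it recovered fewer of the changed genes than limma-voom. Exact permutation tests (scipy 1.17.1) were two-sided. FPKM precision follows read number, and a host with under 10 reads is known only to within wide limits. The members and gene lists were chosen with earlier results of these data known. The text names the members, called genes of each list and a few of its most abundant members, each member's nearest tested protein-coding genes and its 3 best-correlated genes, and the silenced genes. Alternatives were other pseudocounts, filters and scaling, limma-voom on recovered reads, a replicate block, all 9 libraries in a single fit, and each library left out. Gene positions came from GENCODE 44 and sequences from RefSeq. Small RNA was not analysed here. A few items of the lists are not reported here.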

Additional observations from a re-analysis of the deposited data

How the results depend on the processing

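The rise of MIR100HG in siSRF held under all 14 alternatives (log2 difference 0.78 to 0.85, adjusted p of at most 0.0079). That of MIR22HG kept its direction in all 14 (0.92 to 1.16) and passed in 10. It missed the threshold with the replicate block (1.08, adjusted p = 0.0123) and without any 1 of the siSRF libraries (over all fits with 1 library left out, 0.99 to 1.16). MIR503HG, MIR17HG and MIR31HG passed in none of 14 in siSRF, with adjusted p of 0.0458 to 0.173, 0.117 to 0.696 and 0.0118 to 0.264. MIR210HG stayed under the filter in siSRF and was not tested there, and the alternatives planned for it were not run. The descriptive difference of MIR503HG in siIGF2BP1 was 1.34 with a pseudocount of 1 and 1.40 to 1.54 with 1 library left out. For MIR210HG it was 0.42 with a pseudocount of 1, 4.26 with 0.01 and 3.1 by limma-voom, so its size is not known.

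Counts moved more. Limma-voom on recovered reads called 1914 genes higher and 1891 lower in siIGF2BP1 (792 and 796 in the test on FPKM), 2780 and 2343 in siSRF (1498 and 1167), 4 other hosts, 16 and 15 carrier genes and 28 and 36 reported targets. The fit of all 9 libraries called 1309 genes lower in siIGF2BP1. With the replicate block there were 60 and 31 genes in siIGF2BP1 and 257 and 244 in siSRF, 0 other hosts in siIGF2BP1, 1 and 2 carrier genes and 3 and 3 targets. The replicate numbers did not pair the samples (correlation of same-numbered deviations -0.0102, 0.0111 and -0.0124 in siIGF2BP1, -0.0243, 0.00813 and 0.0186 in siSRF, and 0 of 3 and 1 of 3 siRNA libraries correlating best with their own number). With 1 library left out, counts ran from 156 to 316 and 117 to 246 genes (siIGF2BP1, higher and lower), 345 to 939 and 328 to 576 (siSRF), 1 to 4 and 2 to 6 carrier genes, 3 to 7 and 5 to 14 targets, and 0 other hosts in siSRF in 5 of 6 fits. Of the calls on named genes outside the members, 27 of 32 in siIGF2BP1 and 28 of 37 in siSRF were lost in at least 1 fit with 5 libraries, 28 and 28 with the block and 7 and 6 under another setting, and 0 reversed. Calls on HIF1A, THBS1, IGF2BP1, MIR4435.2HG and SLIT3 in siIGF2BP1, and on SREBF1, HIF1A, CDK6, SMURF2, KRT18, SRF, SLC2A1, CTDSP2 and BNIP3 in siSRF, held without each library in turn. Rescaling moved the median of all genes to 0.028 and -0.029. Depth limits MIR210HG and the hairpin rows most.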
